A study of Mus musculus with 6 samples.

Results

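Genes of the NRF2 antioxidant response and the metallothioneins were examined in neurospheres grown from the fetal mouse hypothalamus. The set was taken by name as 10 genes of the 22048 in the deposited table. Of these, 7 are targets of NRF2 (Gclc, Gclm, Slc7a11, Txnrd1, Srxn1, Hmox1 and Nqo1) and 3 are metallothioneins (Mt1, Mt2 and Mt3). All 10 passed the filter on low values, and the lowest count of any of them was 167 reads, for Nqo1 in 1 HE sample. The samples were first-passage neurospheres, free-floating spheres of neural stem and progenitor cells, from male C57BL/6 fetuses taken at E14.5. In the HE (high estradiol) group, dams of 8 weeks of age had received estradiol valerate, an ester of estradiol, by gavage at 100 μg/kg daily from E5.5 to E11.5 (days of embryonic life). The NC (control) dams were given only the corn oil solvent over the same days. There were 3 HE and 3 NC samples, each holding the cells of 2 mice. Every culture was grown in Neurobasal-A with 2% B27, 1% Glutamax and 10 ng/ml each of EGF and bFGF, so the RNA came from cells that were no longer exposed to the dam. The comparison asked whether the level of these transcripts differed between spheres of the 2 groups.

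NRF2, encoded by Nfe2l2, is a transcription factor that KEAP1 holds in the cytoplasm and marks for degradation. When reactive molecules modify KEAP1, NRF2 enters the nucleus, pairs with a small MAF protein and binds antioxidant response elements, which BACH1 otherwise occupies as a repressor. Metallothioneins are small cysteine-rich proteins that bind zinc and copper, and the zinc sensor MTF1 drives Mt1 and Mt2 through metal response elements, while Mt3 is best known from the brain.

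Between 16078675 and 19137059 reads were counted on genes per sample, and 1 read on a transcript of 1 kb was worth 0.0523 to 0.0622 RPKM, the read count scaled to transcript length and to the reads counted in the sample. The sample HE3 stood apart from the rest. Its mean Euclidean distance to the other samples on the log2 scale was 93.6, against 57.5 to 69.0 for the other 5, and it also had the smallest number of reads. For many genes and lists the value without HE3 follows, but not for all that HE3 moved. In bulk RNA, fewer cells of a type and less RNA per cell cannot be told apart.

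The metallothionein genes lie in a cluster on chromosome 8 (GRCm38.p6, RefSeq), with Mt3 at chr8:94152607-94154148, Mt2 at chr8:94172618-94173567 and Mt1 at chr8:94178883-94180327. From the end of Mt3 to the start of Mt2 were 18469 bases, and from the end of Mt2 to the start of Mt1 were 5315 bases. Hmox1 (chr8:75093618-75100593) and Nqo1 (chr8:107388225-107403205) are on the same chromosome. The other members were at chr9:77754535-77794489 for Gclc, chr3:122245487-122267215 for Gclm, chr3:50364936-50499087 for Slc7a11, chr10:82833951-82897724 for Txnrd1 and chr2:152105524-152111376 for Srxn1.

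RefSeq promoter windows of 300 bases, from 250 before a transcript start to 50 after it, were found for 8 of the 10 members and not for Hmox1 and Gclc. They were searched on both strands for the antioxidant response element letters TGACNNNGC and for the metal response element letters TGCACNC or TGCGCNC. The first held in 12.4% and the second in 25.7% of all 32851 windows. The windows of the 3 metallothioneins are shown as those of 1 gene cluster, and that of Srxn1 because it alone had a window among the 3 members whose HE samples all lay below NC. In the metallothionein windows the capitals mark the metal response element letters, and in the Srxn1 window they mark TGACNNNGC or TGAGNNNGC, a wider form that was added after the first search and held in 27.8% of all windows. The windows are chr8:94178839-94179138 for Mt1, chr8:94172368-94172667 for Mt2, chr8:94152357-94152656 for Mt3 and chr2:152105274-152105573 for Srxn1, all on the plus strand. The Mt1 window sits on a transcript start inside the annotated span of the gene.
Mt1: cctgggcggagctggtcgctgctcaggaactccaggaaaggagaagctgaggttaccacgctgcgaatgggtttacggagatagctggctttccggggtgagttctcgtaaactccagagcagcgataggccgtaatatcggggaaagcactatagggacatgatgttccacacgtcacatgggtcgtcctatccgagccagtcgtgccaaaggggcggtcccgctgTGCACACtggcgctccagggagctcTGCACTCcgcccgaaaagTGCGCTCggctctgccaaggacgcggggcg
Mt2: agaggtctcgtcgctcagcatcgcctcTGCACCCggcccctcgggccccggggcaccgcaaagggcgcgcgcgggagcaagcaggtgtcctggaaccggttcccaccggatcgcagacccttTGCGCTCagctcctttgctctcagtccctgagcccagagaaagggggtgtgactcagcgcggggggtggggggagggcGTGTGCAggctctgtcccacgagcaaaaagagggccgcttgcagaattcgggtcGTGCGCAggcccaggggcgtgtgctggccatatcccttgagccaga
Mt3: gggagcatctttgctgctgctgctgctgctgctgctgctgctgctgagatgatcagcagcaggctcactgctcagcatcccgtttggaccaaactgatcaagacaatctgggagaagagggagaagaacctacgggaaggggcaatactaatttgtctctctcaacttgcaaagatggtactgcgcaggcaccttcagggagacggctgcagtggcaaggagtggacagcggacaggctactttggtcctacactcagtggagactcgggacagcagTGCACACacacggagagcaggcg
Srxn1: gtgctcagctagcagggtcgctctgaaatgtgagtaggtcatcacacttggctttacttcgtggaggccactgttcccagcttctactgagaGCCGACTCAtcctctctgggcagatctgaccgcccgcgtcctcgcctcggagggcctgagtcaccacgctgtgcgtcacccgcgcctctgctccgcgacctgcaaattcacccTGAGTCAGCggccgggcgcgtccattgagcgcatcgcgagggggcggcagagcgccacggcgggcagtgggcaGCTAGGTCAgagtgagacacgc

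Positions are counted from the transcript start, whose first base is 1. The Mt1 window held 3 matches to the metal response element letters, at -23, 3 and 21, and the Mt2 window held 4, at -223, -128, -50 and 5. Windows with 3 or more such matches made up 1.97% of all windows. The Mt3 window held 1 match, at 28, and 1 match to the wider antioxidant form, at -192. Mt2 also held 1 match to TGACNNNGC, at -79, whose letters TGACTCAGC include the AP-1 letters TGACTCA. Srxn1 held 1 match to TGACNNNGC, at 29, and 3 matches in the wider form, at -158, -45 and 29, a number reached by 0.63% of all windows, and 1 match to the metal response element letters, at -19. The match at -45, TGAGTCAGC, likewise includes AP-1 letters. Gclm held 1 match to TGACNNNGC and 3 to the metal response element letters. Txnrd1 held 1 match to TGACNNNGC in 1 of its 3 windows, Slc7a11 held 1 match, in the wider form, and Nqo1 held none of these letters. A match of letters is a description of the sequence and was not tested for binding.

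No member passed the threshold of an adjusted p under 0.05 together with a log2 fold change of 1 or more, up or down (limma, Benjamini-Hochberg over 13952 genes). Of all tested genes 0% passed it, the smallest adjusted p being 0.148. The paper used another test, DESeq2, with the same cutoffs and reports mRNAs that passed in both directions. The 0% therefore describes the limma fit used here. At an unadjusted p under 0.05, 1211 genes (8.68%) were higher and 1647 genes (11.8%) were lower in HE. Every HE sample was above every NC sample for 2067 genes (14.8%) and below for 2493 genes (17.9%). Among the 10 members, 3 were below the unadjusted threshold and lower in HE, which were Hmox1, Srxn1 and Gclc. The same 3 had every HE sample below every NC sample, and no member had every HE sample above. The median log2 fold change was -0.26 over the members and -0.059 over all tested genes. With only 3 samples per group the smallest p of the exact two-sided permutation test was 0.1, and these 3 genes had that value.

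**Figure D1:**
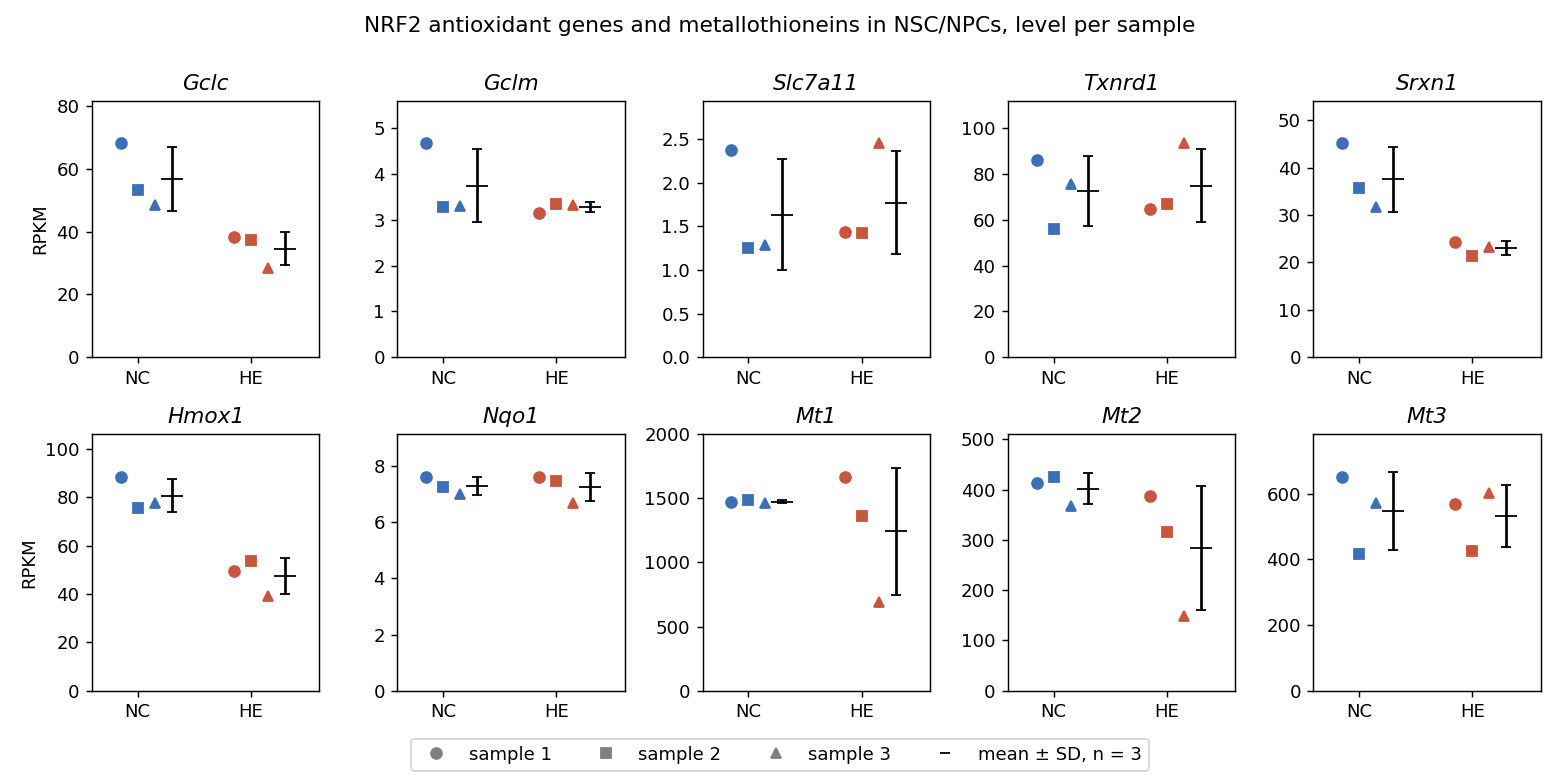
RPKM of each of the 10 members in the 3 NC and 3 HE samples, in 1 panel per gene with a linear axis from 0, with 1 point per sample and the mean ± SD (n = 3) beside each group. Every HE point of Hmox1, Srxn1 and Gclc lies below every NC point, and for Mt1 and Mt2 the lowest point is HE3, at 693.8 and 148.6 RPKM.

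The members covered a wide range of levels. In NC, Mt1 had the highest mean at 1473 RPKM, followed by Mt3 at 547 and Mt2 at 402. The NC values of Mt3 and Mt2 overlapped. Hmox1 (80.6 RPKM), Txnrd1 (72.6) and Gclc (56.7) came next, and each overlapped its neighbour in this order. Srxn1 at 37.5 RPKM, Nqo1 at 7.30, Gclm at 3.75 and Slc7a11 at 1.64 followed. In all, Mt1, Mt2 and Mt3 took 0.126% to 0.137% of the reads in NC and 0.142%, 0.114% and 0.0781% in HE1, HE2 and HE3. The other 7 members took 0.0688% to 0.092% in NC and 0.0579% to 0.0631% in HE.

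Glutathione is made in a pathway whose first and rate-limiting step is glutamate-cysteine ligase. Gclc encodes its catalytic subunit. Gclc was at 68.1, 53.4 and 48.5 RPKM in NC1, NC2 and NC3 and at 38.2, 37.3 and 28.4 RPKM in HE1, HE2 and HE3. All HE values lay below the lowest NC value. The NC mean was 56.7 ± 10.2 RPKM and the HE mean 34.6 ± 5.41 RPKM (SD, n = 3 per group), which gave a log2 fold change of -0.71 (SE 0.17, 95% interval -1.12 to -0.30, adjusted p = 0.195, limma). Without HE3 it was -0.57.

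Gclm encodes the modifier subunit of the same enzyme. Its values were 4.67, 3.28 and 3.29 RPKM in NC and 3.15, 3.34 and 3.32 RPKM in HE. NC1 was the highest sample and the groups overlapped. The log2 fold change was -0.17 (SE 0.18, 95% interval -0.59 to 0.25, adjusted p = 0.574, limma), and it was -0.0061 without NC1.

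The ratio of Gclc to Gclm within a sample does not depend on library size. It was 14.6, 16.3 and 14.8 in NC and 12.1, 11.2 and 8.55 in HE. Every HE ratio was below every NC ratio, with means of 15.2 ± 0.926 and 10.6 ± 1.85 (SD, n = 3 each; exact permutation p = 0.1, the smallest that 3 against 3 allows). On the log2 scale the mean ratio was lower in HE, with a difference of -0.53.

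Slc7a11 encodes the cystine importer that supplies cysteine for glutathione. It was at 2.37, 1.25 and 1.28 RPKM in NC and at 1.44, 1.43 and 2.45 RPKM in HE. NC1 and HE3 were the high samples, and the groups overlapped. The log2 fold change was 0.13 (SE 0.32, 95% interval -0.62 to 0.88, adjusted p = 0.827, limma), and without HE3 it was -0.12.

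Srxn1 encodes sulfiredoxin, which repairs overoxidised peroxiredoxins. Its values were 45.1, 35.7 and 31.7 RPKM in NC and 24.3, 21.4 and 23.3 RPKM in HE. HE3 lay between the other HE samples, and the groups did not overlap. The NC mean was 37.5 ± 6.91 RPKM and the HE mean 23.0 ± 1.48 RPKM (SD, n = 3 per group), which gave a log2 fold change of -0.69 (SE 0.15, 95% interval -1.04 to -0.34, adjusted p = 0.195, limma). Without HE3 it was -0.70.

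Txnrd1 encodes the cytosolic thioredoxin reductase, which keeps thioredoxin reduced. It was at 86.1, 55.9 and 75.7 RPKM in NC and at 64.8, 66.7 and 93.3 RPKM in HE. The highest value was that of HE3 and the lowest that of NC2, so the groups overlapped. The log2 fold change was 0.047 (SE 0.21, 95% interval -0.44 to 0.54, adjusted p = 0.904, limma), and it was -0.12 without HE3.

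Hmox1 encodes heme oxygenase 1, the inducible enzyme that opens the heme ring and releases iron, carbon monoxide and biliverdin. It was at 88.5, 75.8 and 77.6 RPKM in NC and at 49.5, 53.7 and 39.0 RPKM in HE. The highest HE sample was well below the lowest NC sample. The NC mean was 80.6 ± 6.89 RPKM and the HE mean 47.4 ± 7.58 RPKM (SD, n = 3 per group), so that the HE mean was 0.588 of the NC mean. The log2 fold change was -0.77 (SE 0.15, 95% interval -1.12 to -0.43, adjusted p = 0.195, limma), and -0.64 without HE3.

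Nqo1 encodes a quinone reductase that is among the most used readouts of NRF2. Its values were 7.62, 7.27 and 7.002 RPKM in NC and 7.62, 7.46 and 6.69 RPKM in HE. All 6 samples lay within a narrow range, and the groups overlapped. The log2 fold change was -0.0088 (SE 0.12, 95% interval -0.29 to 0.27, adjusted p = 0.965, limma). The interval leaves out the fold changes fitted for Hmox1, Srxn1 and Gclc, but the difference between genes was not tested.

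**Figure D2:**
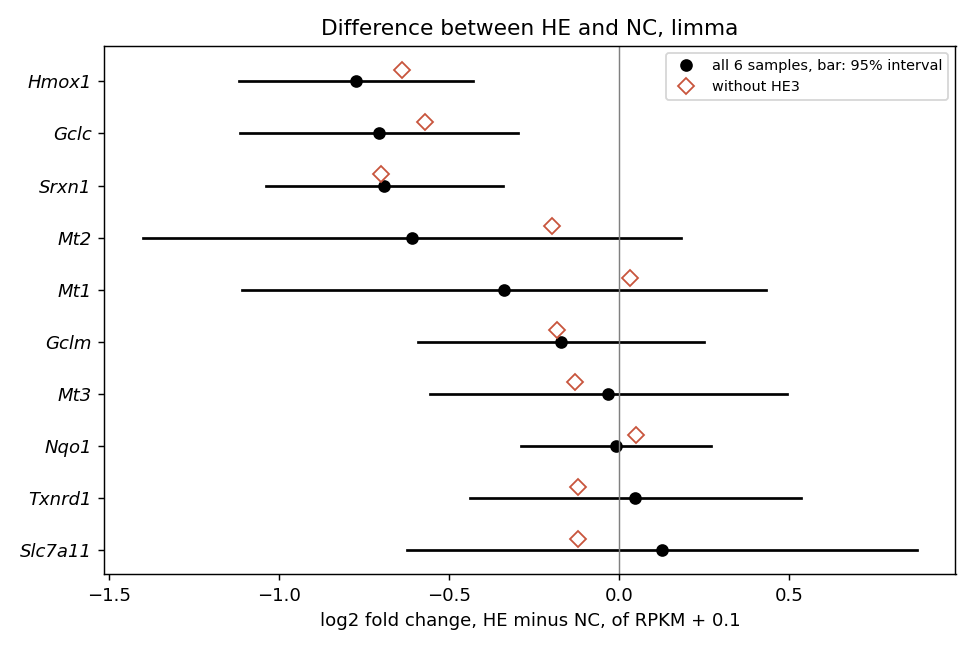
Log2 fold change of RPKM + 0.1, HE minus NC, for each member, ordered from the lowest, with the 95% interval from limma over all 6 samples (filled points) and the value without HE3 (open diamonds). The intervals of Hmox1, Gclc and Srxn1 lie below 0, and the point of Mt1 moves from -0.34 to 0.03 without HE3.

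Mt1 was the most abundant member. It was at 1468, 1485 and 1465 RPKM in NC and at 1667, 1362 and 694 RPKM in HE. The NC samples were close together, HE1 was above them all, and HE3 was the lowest. The NC mean was 1473 ± 11.1 RPKM and the HE mean 1241 ± 498 RPKM (SD, n = 3 per group), and the log2 fold change was -0.34 (SE 0.33, 95% interval -1.11 to 0.43, adjusted p = 0.540, limma). Without HE3 it turned to 0.033.

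Mt2, the partner of Mt1 in most tissues, was at 413, 426 and 367 RPKM in NC and at 387, 316 and 149 RPKM in HE. HE1 lay inside the NC range and HE3 was again the lowest. The log2 fold change was -0.61 (SE 0.34, 95% interval -1.40 to 0.18, adjusted p = 0.316, limma), and -0.20 without HE3. Mt3, which is also called growth inhibitory factor, was at 652, 418 and 572 RPKM in NC and at 569, 425 and 602 RPKM in HE. HE3 was within the NC range for Mt3, and the log2 fold change was -0.032 (SE 0.22, 95% interval -0.56 to 0.49, adjusted p = 0.939, limma).

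The ratio of Mt1 to Mt2 was 3.55, 3.49 and 3.998 in NC and 4.31, 4.31 and 4.67 in HE. Each HE ratio was above each NC ratio, with means of 3.68 ± 0.277 and 4.43 ± 0.209 (SD, n = 3 each; exact permutation p = 0.1). The ratio of Mt3 to Mt2 was 4.05 in HE3 and between 0.982 and 1.58 in the other 5 samples. The groups overlapped (exact permutation p = 0.6). The ratio of Mt1 to Mt3 was 1.15 in HE3 and between 2.25 and 3.56 in the other 5 samples, and the groups overlapped (exact permutation p = 0.8). Mt1 and Mt2 are close paralogs, and how reads shared between them were counted is not given in the sources used here. These ratios are uncertain to that degree. The fourth gene of the cluster, Mt4, had 3 reads in NC3, 1 in HE2 and 0 in the other samples, and was not tested.

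**Figure D3:**
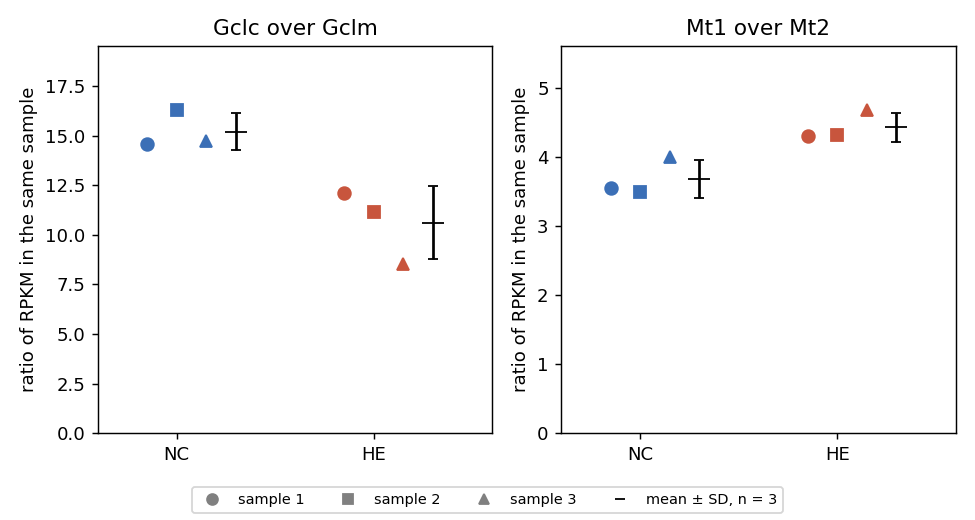
Ratios of RPKM within a sample for Gclc over Gclm (left) and Mt1 over Mt2 (right) on linear axes from 0, with 1 point per sample and the mean ± SD (n = 3) beside each group. The HE points of Gclc over Gclm lie below all NC points, and those of Mt1 over Mt2 lie above all NC points.

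The genes whose profile over the 6 samples was most like that of Mt1, by the root mean square difference of centred log2 values among 12609 genes, were Bbs2 (0.0438), Prpf39 (0.0446), Mdm4 (0.0567), Zfp867 (0.0589) and Fam198a (0.0627). Mt2 differed from Mt1 by 0.153 and Mt3 by 0.533 on this measure. Bbs2, a gene of the cilium, lies on the same chromosome at chr8:94067952-94099369, as the nearest protein-coding gene on the far side of Mt4. It was at 13.2, 13.1 and 12.5 RPKM in NC and at 14.0, 11.4 and 5.67 RPKM in HE, so that HE3 was the lowest here too. For Hmox1 the nearest profiles were those of Slc6a20b (0.0518), 1700017B05Rik (0.059), Cc2d1a (0.0593), Wdfy3 (0.0598) and Dip2b (0.0624). Gclc differed from Hmox1 by 0.103, Srxn1 by 0.198 and the other members by 0.324 to 0.629. All profiles share the same 6 libraries.

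The list of NRF2 regulators counts Nfe2l2 and small MAF partners together with genes that act against NRF2, such as Keap1 and Bach1. Of these 16 regulators, all tested, 13 had a lower and 3 a higher mean in HE. The median of their log2 fold changes was -0.36. At an unadjusted p under 0.05, 5 were lower and 0 higher, and for 7 every HE sample was below every NC sample. These were 81.2%, 31.2% and 43.8% of the list for a lower mean, an unadjusted p under 0.05 with a lower mean and non-overlap below NC, against 56.2%, 11.8% and 17.9% of all tested genes. Nfe2l2 was at 50.3, 38.7 and 43.2 RPKM in NC and at 40.6, 29.1 and 29.7 RPKM in HE. The groups overlapped in HE1, and the log2 fold change was -0.42 (SE 0.17, adjusted p = 0.229, limma). Keap1 had every HE sample below NC by a small margin, at 19.6 ± 1.71 against 17.2 ± 0.299 RPKM, and Bach1 likewise, at 14.5 ± 1.57 against 11.7 ± 0.998 RPKM (SD, n = 3 each). Sqstm1 encodes p62, a cargo receptor of autophagy that binds KEAP1 and is itself a target of NRF2, and it was at 276, 295 and 214 RPKM in NC and at 183, 177 and 135 RPKM in HE (log2 fold change -0.66, SE 0.18, adjusted p = 0.195, limma). Mafk, a small MAF partner, had a log2 fold change of -0.78 with overlapping groups, and -0.31 without HE3. The highest of the list were Rbx1 at 0.15 and Dpp3 at 0.08, which were 0.047 and -0.047 without HE3. Leaving out 1 sample moved the median between -0.51 and -0.21, the latter without HE3.

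The list of other NRF2 targets, which left out Sqstm1 because it was counted with the regulators, was split. Of 32 listed, 28 were tested, 13 being higher (46.4%, against 43.8% of all tested genes) and 15 lower. The median was -0.036 and ran from -0.15 to 0.057 when 1 sample was left out. At an unadjusted p under 0.05, 4 were higher (14.3%, against 8.68% of all tested genes) and 3 lower (10.7%, against 11.8%). Osgin1 had a log2 fold change of -1.14 (SE 0.30, adjusted p = 0.195, limma) at 1.81 against 0.796 RPKM, and Abcc4, an exporter of conjugates and cyclic nucleotides, had -0.58 at 14.5 against 9.60 RPKM. Trim16 had 1.11, at 0.713 against 1.80 RPKM. Prdx1, a peroxiredoxin, had 1.23, at 3.97 against 9.99 RPKM, and its value is uncertain because the genome holds processed copies of it. Without HE3 the log2 fold changes of Osgin1, Trim16 and Prdx1 were -0.83, 0.74 and 1.53.

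Glutathione metabolism beyond the members had more genes higher than lower. Of 24 tested genes out of 25, 16 were higher (66.7%, against 43.8% of all tested genes) and 8 lower, with a median of 0.12. At an unadjusted p under 0.05 there were 8 higher (33.3%, against 8.68%) and 2 lower (8.33%, against 11.8%). Gstt1, a glutathione transferase, had a log2 fold change of 1.49 (SE 0.46, adjusted p = 0.195, limma), at 11.4 ± 5.72 against 32.2 ± 15.7 RPKM (SD, n = 3 each). Ggt5 had 1.06 with overlapping groups. Oplah, which opens 5-oxoproline to glutamate, had -1.07 at 11.7 against 5.62 RPKM, and Ggt7 had -0.40. Without HE3 the log2 fold changes of Gstt1, Ggt5, Oplah and Ggt7 were 1.13, 1.28, -0.81 and -0.28.

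In the thioredoxin and peroxiredoxin system, 10 of 16 genes were higher (62.5%, against 43.8% of all tested genes) and 6 lower. The median was 0.12, and 0.020 without NC3. Txn1, the substrate of Txnrd1, averaged 128 ± 8.13 RPKM in NC and was at 165, 231 and 486 RPKM in HE1, HE2 and HE3. All HE values were above NC and HE3 was by far the highest (log2 fold change 1.05, SE 0.36, adjusted p = 0.205, limma). Without HE3 the log2 fold change of Txn1 was 0.61. Prdx6 had -0.48 at 126 against 91.3 RPKM and Sesn2, a stress-induced sestrin, had -0.46 at 35.3 against 25.8 RPKM. Of 5 superoxide dismutase and catalase genes, 4 were higher (80.0%, against 43.8% of all tested genes) and 1 lower. Their median was 0.11, and it was 0.062 without NC3 and 0.029 with sample quality weights. Sod2, the mitochondrial form, was at 28.2 ± 0.399 against 36.6 ± 4.26 RPKM (SD, n = 3 each) with every HE sample above NC, and Sod1 was at 431 against 472 RPKM with overlapping groups. Ccs, the copper chaperone of Sod1, had 0.081 and Sod3, the secreted form, had -0.096. Without HE3 the log2 fold changes of Sod1, Ccs and Sod3 were 0.082, 0.013 and -0.36.

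**Figure D4:**
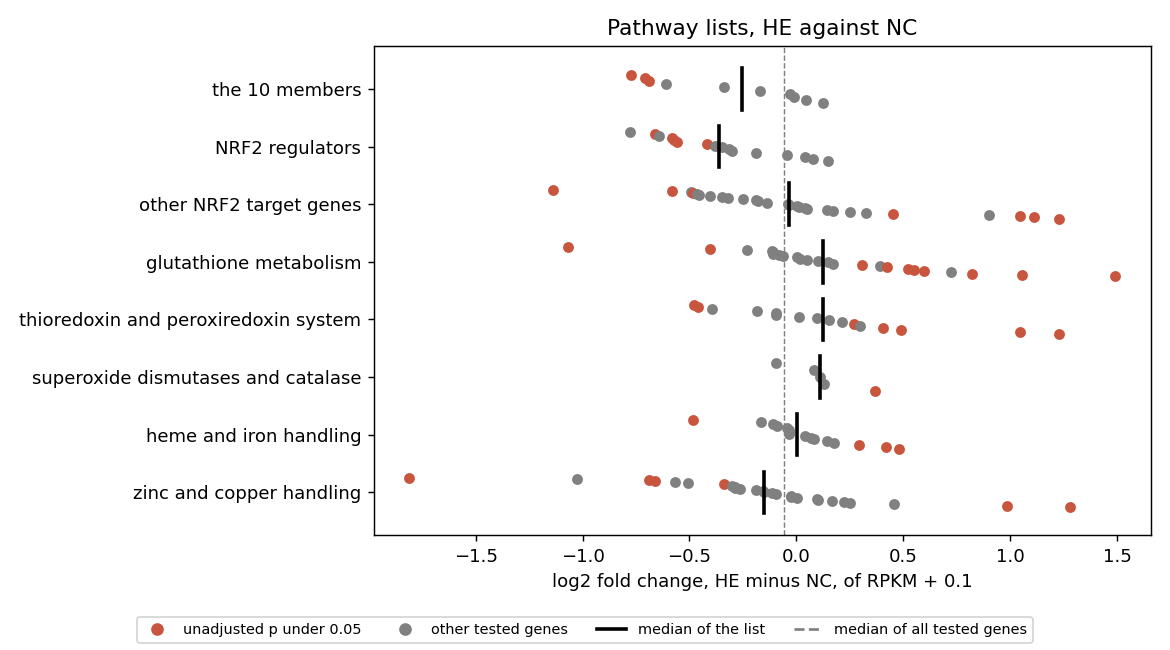
Log2 fold changes, HE minus NC, of the tested genes of each list, with genes of unadjusted p under 0.05 in red, a black bar at the median of the list and a dashed line at the median of all tested genes, -0.059. The medians of the members and of the NRF2 regulators lie left of the dashed line, and those of glutathione metabolism and of the thioredoxin system lie right of it.

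Heme and iron genes, the pathway of Hmox1, were evenly split, with 8 of 16 higher and 8 lower and a median of 0.0037 that ran from -0.029 to 0.098 when 1 sample was left out. Ftl1, the ferritin light chain and a target of NRF2, averaged 1583 ± 134 RPKM over the NC samples and 1133 ± 83.7 RPKM over the HE samples (SD, n = 3 per group), with every HE sample below NC (log2 fold change -0.48, adjusted p = 0.217, limma). Tfrc, the transferrin receptor, was at 5.34 against 7.48 RPKM, and Aco1, whose protein can bind iron-responsive elements, was at 29.3 against 39.5 RPKM, both with every HE sample above NC. Urod had -0.17 with overlapping groups.

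Zinc and copper genes, the company of the metallothioneins, were lower in 18 and higher in 9 of the 27 tested out of 29, with a median of -0.15 that was -0.037 without HE3. Every HE sample was below every NC sample for 9 (33.3%, against 17.9% of all tested genes) and above for 2 (7.41%, against 14.8%). The share with a lower mean was 66.7%, against 56.2% of all tested genes. Mtf1 was at 4.33 ± 0.331 against 3.53 ± 0.115 RPKM and Slc30a1, a zinc exporter that MTF1 drives, at 6.44 ± 0.489 against 5.21 ± 0.434 RPKM (SD, n = 3 each), both with every HE sample below NC and with adjusted p = 0.269 and 0.252 (limma). Slc31a2, a copper transporter, had the lowest value of the list at -1.81 (SE 0.39, adjusted p = 0.195, limma), at 30.4 ± 16.9 against 7.96 ± 2.09 RPKM. Cox17, a copper chaperone, had -0.69, at a low and possibly shared level of 0.576 against 0.325 RPKM. Slc39a12 and Slc30a10 had the highest values of the list, at 1.28 and 0.99, from mean levels of 0.779 and 0.854 RPKM in NC. Without HE3 the log2 fold changes of Slc31a2, Cox17, Slc39a12 and Slc30a10 were -1.6, -0.49, 0.95 and 1.11.

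Glucocorticoids and the stress factor ATF4 are also known to act on metallothioneins and on Slc7a11, respectively. Of 11 glucocorticoid-responsive genes, 5 were higher (45.5%, against 43.8% of all tested genes) and 6 lower. Their median was -0.19 and became 0.24 without HE3. Per1 had -1.23 with overlapping groups (-0.29 without HE3) and Pdk4 had -1.19 at 5.12 against 2.33 RPKM (-0.80 without HE3), while Sgk1 had 0.45 and Fkbp5 0.35. Of 14 ATF4 targets, 7 were higher and 7 lower, with a median of -0.0057 that ran from -0.12 to 0.11 when 1 sample was left out. Ddit3 and Ddit4 had -1.09 and -0.95 with every HE sample below NC, and Asns and Phgdh, enzymes of asparagine and serine synthesis, had 0.75 and 0.74. Without HE3 these 4 log2 fold changes were -0.47 for Ddit3, -0.37 for Ddit4, 0.38 for Asns and 0.37 for Phgdh. No gene of any list in this or the preceding paragraphs passed the threshold, and the smallest adjusted p was 0.195 (limma).

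Marker levels were set beside these results, and their part in them was not tested. Summed over 10 astrocyte markers, RPKM ranged from 1653 to 2301 in NC and from 1202 to 1819 in HE, with HE3 lowest, as for Mt1 and Mt2. Of these 10 markers 4 had a higher and 6 a lower mean log2 value in HE, with 2 higher and 0 lower at an unadjusted p under 0.05. Gfap was lowest in HE3, at 195 RPKM against 387 to 754 in the other samples, whereas S100b was highest there, at 15.5 against 5.42 to 12.4 RPKM, and Gjb6 had every HE sample above NC. The 9 progenitor markers summed to 2868 to 3557 in NC and 2811 to 4506 in HE. Of them 8 (88.9%, against 56.2% of all tested genes) had a lower mean log2 value in HE. Fabp7 was the exception, at 1059 against 1656 RPKM, with 2383 RPKM in HE3. Sox2, Msi1 and Prom1 had every HE sample below NC (33.3% of the list, against 17.9% of all tested genes). The sums of the 8 neuron markers were 46.4 to 77.4 and 52.3 to 67.6, and those of the 8 oligodendrocyte markers 291 to 321 and 315 to 515. For 10 microglia and macrophage markers, cells that also express Hmox1, the sums were 1.28 to 2.25 in NC and 5.07 to 35.1 in HE. Every HE sum was above NC. Lyz2 made up most of the HE sums, at 9.44, 2.98 and 25.5 RPKM in HE1, HE2 and HE3. C1qa, C1qb and C1qc also had every HE sample above NC. Aif1, Fcer1g, Csf1r, Cx3cr1 and Ptprc overlapped between the groups, and Aif1 and Fcer1g had a lower mean in HE. C1qa, C1qb, C1qc, Tyrobp and Ptprc were at 0 in at least 1 sample. The 8 endothelial markers summed to 3.49 to 5.21 against 5.31 to 6.85 and the 8 mesenchymal markers to 33.3 to 94.8 against 80.5 to 171. All 7 mesenchymal markers that were tested had a higher mean log2 value in HE, against 43.8% of all tested genes. For 3 of them (42.9%, against 14.8%) every HE sample was above every NC sample. The 8 erythroid markers summed to 0.605 to 0.735 against 0.464 to 4.46, with Hba-a2 and Hbb-y at 0 in every sample.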

How the data were processed

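RNA-seq of first-passage hypothalamic neurospheres was read from 1 deposited table of 22048 genes with a read count and an RPKM per sample. The authors prepared strand-specific libraries and, per the labels, used CASAVA 1.7 and TopHat2 with the build mm10. Whether counting used strand, and how shared reads were treated, is not given in the sources used here. The deposited RPKM values equalled the read count over transcript length and counted reads within 4.99e-07. The deposited read counts are written with commas. The RPKM values that were fitted were computed again from these counts, the transcript length and the counted reads. The counts also gave the filter, the read shares, the median-of-ratios scaling and the voom alternatives. Symbols were found for 21781 identifiers.

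A gene was tested if 3 samples reached the rate that 10 reads give in the median library and its reads summed to 15. The main test was limma 3.58.1 (R 4.3.3, trend), with no term but group, run on log2(RPKM + 0.1), and Benjamini-Hochberg adjustment over 13952 genes. Fold changes are on this scale, which understates the change of low genes. A gene was called at adjusted p under 0.05 with a log2 fold change of 1 or more, up or down. Single ratios were tested by the exact two-sided permutation test over 20 assignments. By the paper's account, the samples were harvested separately and held cells of different mice. The labels do not say whether the samples were separate litters. The p-values therefore measure the spread between these samples, which may not be independent.

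The members and the lists were chosen with earlier results of these data known. Genes named are the members, in each list the 2 highest and 2 lowest fold changes with a mean log2 CPM of at least 1, and Nfe2l2, Keap1, Bach1, Mtf1 and Slc30a1. Profiles most like Mt1 and Hmox1 were taken by the smallest difference. Metallothionein protein sequences were not analysed here. Promoter windows came from RefSeq (GRCm38.p6). The treatment tag of NC reads untreated, whereas the protocol gives it corn oil.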

Additional observations from a re-analysis of the deposited data

How the results depend on the processing

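Under 14 alternatives (a pseudocount of 1, median-of-ratios scaling, both other filters, the replicate block, leaving out each sample, sample quality weights, and voom on read counts with and without such weights), no member was called. The fold changes of the members kept their direction and side of the adjusted threshold in 116 of 140 refits, turned in 19 and passed the adjusted threshold in 5. Over all alternatives the log2 fold change of Hmox1 ran from -0.87 to -0.64, that of Srxn1 from -0.81 to -0.55 and that of Gclc from -0.81 to -0.57, with adjusted p from 0.0259, 0.0328 and 0.0396 to 0.502 (limma). The lowest of these came with sample quality weights, which brought Hmox1, Srxn1 and Gclc under 0.05. The weights in this fit were estimated from the same 6 samples. HE3 had a weight of 0.158, against 0.852 to 2.87 for the other samples, so it counted for little. Voom with such weights brought Hmox1 (0.0363) and Srxn1 (0.0483) under 0.05 but not Gclc (0.0542). The count of genes called was 0 with all 6 samples, 268 with sample quality weights (100 higher, 168 lower) and 113 with voom and such weights (51 higher, 62 lower), and it ranged from 0 to 103 when 1 sample was left out, the 103 coming without NC3. Members turned as follows: Nqo1 to 0.052 and Mt3 to 0.030 with median-of-ratios scaling, Slc7a11 to -0.24, Txnrd1 to -0.18 and Nqo1 to 0.020 with sample quality weights, and Slc7a11 to -0.22, Txnrd1 to -0.17 and Nqo1 to 0.025 with voom and such weights. When 1 sample was left out the ranges were -0.25 to -0.0061 for Gclm (the latter without NC1), -0.12 to 0.41 for Slc7a11, -0.13 to 0.18 for Txnrd1, -0.045 to 0.048 for Nqo1, -0.60 to 0.033 for Mt1 and -0.21 to 0.12 for Mt3. The cause of these turns was not tested. With the replicate block 0 genes were called, and the adjusted p of Hmox1, Srxn1 and Gclc was 0.106, 0.111 and 0.106. Whether the sample numbers mark pairs was not settled. The deviations of same-numbered samples correlated at 0.156, 0.0869 and 0.0603, but samples of different numbers were not compared in this way. Mt2 had an unadjusted p under 0.05 with the replicate block (0.0495) and without HE1 (0.0304), and not with all 6 samples and no block.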
